A study of Rattus norvegicus with 6 samples.

Results

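Cytoplasmic dynein-1 is the motor that carries cargo along microtubules towards their minus ends, and the genes described here encode its subunits. The members were the 10 genes Dynll1, Dynll2, Dynlt1, Dynlt3, Dynlrb1, Dync1h1, Dync1i1, Dync1i2, Dync1li1 and Dync1li2, found by their symbols in a table of 34170 genes, where each symbol occurred once. Dynll1 was chosen by its lower FPKM in the diabetic than in the control libraries, and the other 9 genes were selected as subunits of the same motor. All differences between the groups are therefore given as descriptions, and nothing is supported with them.

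The samples were retinas of 6 male rats of the outbred Sprague-Dawley stock. The diabetic group held 3 rats given streptozotocin, which kills the insulin-producing cells of the pancreas, into the peritoneum on 5 days at 60 mg/kg after a fast of 12 h. The control group held 3 rats injected on 5 days with citrate buffer, the vehicle. The labels call the groups Diabetic and WT, name no engineered allele, and count a rat as diabetic above 16.7 mmol/L fasting blood glucose 1 week after the last injection. The rats weighed 100.4, 102.5 and 104 g in the diabetic group and 103.4, 110.5 and 106 g in the control group. The sources used here give neither their age nor when the retinas were collected. The study surveyed messenger RNA and m6A, a methylation of RNA, in diabetes, and the values analysed here are gene expression values of poly-A RNA.

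In the motor, a pair of heavy chains (Dync1h1) carries the ATP-driven ring and the microtubule-binding stalk. The intermediate chains (Dync1i1 and Dync1i2) hold the complex together and contact dynactin, its cofactor, while the light intermediate chains (Dync1li1 and Dync1li2) bind cargo adaptors. The light chains of the roadblock (Dynlrb1), LC8 (Dynll1 and Dynll2) and Tctex (Dynlt1 and Dynlt3) families sit on the intermediate chains. In photoreceptors dynein carries vesicles with rhodopsin towards the base of the cilium, and Dynlt1 is known to bind the tail of rhodopsin. LC8 is also a dimerization hub outside the motor, and Dynll1 was described in rat as PIN, a protein inhibitor of neuronal nitric oxide synthase.

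Expression was given as FPKM, fragments scaled to gene length and to the size of the library. The fragments behind the values amounted to between 16277864 and 19115426 in the diabetic libraries and between 12417686 and 16941864 in the control libraries. Each member rested on at least 190 fragments in every library (Dynlt1 in control 3) and Dynll1 on 1619 to 2347. Markers matched the labelled tissue. The summed level of 5 rod genes was 24323 to 27870 FPKM in diabetic and 29042 to 33652 FPKM in control retina. In FPKM as deposited the groups thus did not overlap in this sum. They did overlap in the sums of the markers of cones, bipolar cells, amacrine and horizontal cells, ganglion cells and Muller glia. The total FPKM of all genes was also lower in every diabetic than in every control library. As a share of that total the groups overlapped in the rod sum. It was 27870 of 500107 FPKM in diabetic 3 and 29042 of 521710 FPKM in control 1, a slightly higher share in diabetic 3. The part of the rod level in the results below was not tested. In whole retina fewer cells of a type and less RNA per cell cannot be told apart. The summed level of 4 lens genes was 169.9 FPKM in control 3, against 5.11 to 22.8 FPKM elsewhere. That of 4 pigment epithelium genes was 38.9 to 90.03 FPKM in diabetic and 41.4 to 88.7 FPKM in control retina. The libraries are separate rats by their labelled weights, so n counts animals.

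Ordered by their mean over the 6 libraries, and compared per length, the light chains Dynlrb1 (198 FPKM), Dynll1 (181 FPKM) and Dynll2 (178 FPKM) stood at the top. The intermediate chain gene Dync1i2 (67.4 FPKM) and the light intermediate chain genes Dync1li2 (48.3 FPKM) and Dync1li1 (44.7 FPKM) came next. The Tctex light chains Dynlt1 (26.4 FPKM) and Dynlt3 (25.5 FPKM) followed, and Dync1i1 (19.9 FPKM) and the heavy chain gene Dync1h1 (19.3 FPKM) were last. The ranges over the 6 libraries overlapped among the top 3, between Dynlt1 and Dynlt3, between Dynlt3 and Dync1i1, and between Dync1i1 and Dync1h1. Between Dynll2 and Dync1i2, Dync1i2 and Dync1li2, Dync1li2 and Dync1li1, and Dync1li1 and Dynlt1 the ranges did not overlap. Gene length in the table is that of a whole gene model, so a level per length depends on how well the model matches the transcripts of retina.

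**Figure D1:**
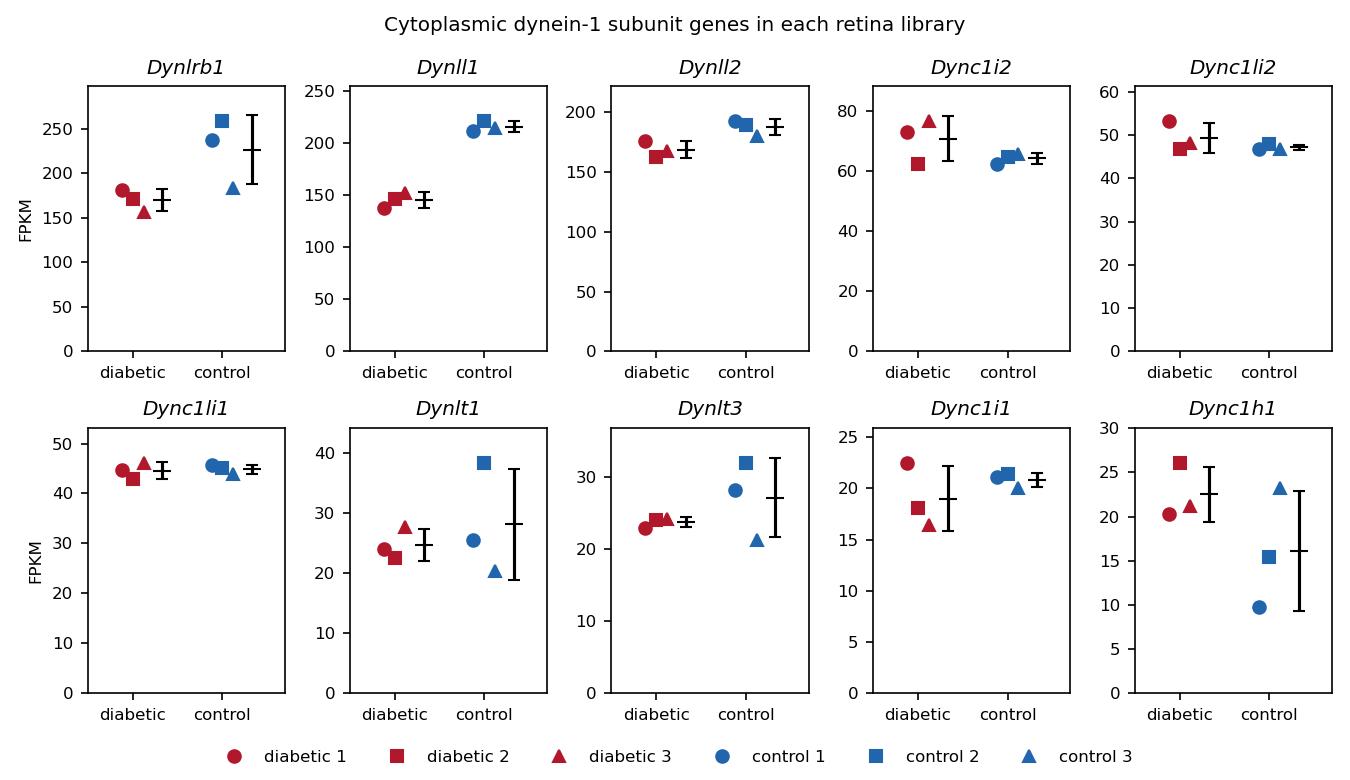
FPKM (vertical axes, starting at 0) of the 10 dynein-1 subunit genes in each library of diabetic and control retina, with the mean and SD of each group of 3 beside the points. In FPKM as deposited the groups do not overlap for Dynlrb1, Dynll1 and Dynll2, all lower in diabetic retina, and overlap for the other 7 genes.

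Dynll1 encodes the LC8 light chain that led to the choice of these genes. It was at 138, 147 and 153 FPKM in diabetic 1, 2 and 3, against 211, 222 and 214 FPKM in control 1, 2 and 3. All diabetic values were below all control values, and the libraries within a group lay close together. The means were 146 ± 7.55 FPKM in diabetic and 216 ± 5.34 FPKM in control retina (SD, n = 3 each), a ratio of 0.675. On the log2(FPKM + 0.5) scale the difference was -0.57 with a 95% interval from -0.74 to -0.39 (limma). Of all 16363 genes tested, 3.65% had a lower difference. The difference was between -0.60 and -0.53 when each library was left out in turn and -0.43 with TPM, which rescales the FPKM of every library to 1 common total and moved the median of all genes to 0.13, so that relative to this median it was -0.56. It was -0.38 under quantile normalization, which gives every library the same distribution of values, and -0.42 after removal of the trend with gene length in each library.

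The files place Dynll1 (ENSRNOG00000011222) at positions 47074200 to 47076572 of chromosome 12, plus strand, in a build that the sources used here do not name, with a gene length of 652 nt and no overlapping gene. The table also lists 3 other genes whose descriptions liken their product to this light chain, and their sequences were not compared here. LOC679822 had 6 fragments in control 3 and 0 or 1 in the other libraries, LOC100361920 had at most 1 and LOC100363141 had 0 in all 6. Together they held at most 0.391% of the number of fragments of Dynll1 in a library, in control 3, and the sources used here do not say how reads that match several genes were counted.

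The promoters of Dynll1 and Dync1h1 are shown because these genes had the lowest and the highest difference among the 10. They are the 250 bases before the start given by RefSeq in build GRCr8, on the plus strand, at chr12:46972827-46973076 and chr6:135436228-135436477. Capitals mark GC boxes (GGGCGG) and CCAAT boxes (CCAAT) on either strand.
Dynll1: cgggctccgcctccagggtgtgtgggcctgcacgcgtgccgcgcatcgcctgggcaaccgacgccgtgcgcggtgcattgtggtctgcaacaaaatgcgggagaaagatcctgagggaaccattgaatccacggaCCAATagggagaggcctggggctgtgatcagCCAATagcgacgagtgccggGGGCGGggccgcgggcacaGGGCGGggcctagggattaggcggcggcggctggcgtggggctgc
Dync1h1: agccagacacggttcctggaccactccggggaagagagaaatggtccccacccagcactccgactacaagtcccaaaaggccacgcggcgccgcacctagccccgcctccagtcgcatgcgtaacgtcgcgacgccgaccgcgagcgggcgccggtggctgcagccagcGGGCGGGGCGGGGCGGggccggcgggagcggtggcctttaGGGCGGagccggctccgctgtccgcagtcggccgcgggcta
The Dynll1 window held 2 GC boxes and 2 CCAAT boxes, and the Dync1h1 window held 4 GC boxes, 3 of which overlap each other, and 0 CCAAT boxes. Neither held TATAAA. Of the 10 genes, 7 had a promoter in the table, and of these 6 held a GC box, 3 a CCAAT box and 0 a TATA box. Among the 33469 promoters of the table the shares with each motif were 30.5%, 34.0% and 12.9%. Dynll1 had 68.8% G and C in this window and Dync1h1 73.2%, while Dync1i2 had 45.6%, against a median of 51.2% over all promoters. A match here describes the letters of the window and is not a binding site.

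Dynll2 encodes the other LC8 chain and is the closest relative of Dynll1. It was at 176, 163 and 168 FPKM in diabetic 1, 2 and 3, against 193, 189.6 and 180.4 FPKM in control 1, 2 and 3. In FPKM as deposited the groups did not overlap, with diabetic 1 and control 3 only a few FPKM apart. The total FPKM of all genes was 476348 in diabetic 1 and 514771 in control 3. With every library rescaled to the same total, diabetic 1 lay above control 3. The log2 difference was -0.15 with a 95% interval from -0.32 to 0.02, and it was 0.06 under quantile normalization. With TPM it was -0.015, or -0.15 relative to the median of all genes. Together the LC8 genes summed to 314, 309 and 320.1 FPKM in diabetic 1, 2 and 3 and to 404, 411 and 394 FPKM in control 1, 2 and 3. Dynll1 made up 43.9%, 47.4% and 47.6% of that sum in diabetic 1, 2 and 3, against 52.3%, 53.9% and 54.3% in control 1, 2 and 3. Dynll1 was thus the lower of the LC8 genes in all 3 diabetic libraries and the higher in all 3 control libraries.

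Dynlrb1, the roadblock light chain, which binds the intermediate chains as a dimer, was at 181, 171 and 156 FPKM in diabetic 1, 2 and 3, against 237, 259 and 184 FPKM in control 1, 2 and 3. In FPKM as deposited the groups did not overlap, but control 3 lay next to diabetic 1 and far below the other control libraries. With every library rescaled to the same total FPKM, diabetic 1 lay above control 3. The means were 169 ± 12.4 and 227 ± 38.7 FPKM in diabetic and control retina (SD, n = 3 each). The log2 difference was -0.41 with a 95% interval from -0.73 to -0.09. Under quantile normalization it was -0.17, and after removal of the length trend -0.26. With TPM it was -0.27, or -0.40 relative to the median of all genes.

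Dynlt1, the Tctex light chain that binds rhodopsin, was at 24.0, 22.4 and 27.7 FPKM in diabetic 1, 2 and 3, against 25.5, 38.3 and 20.3 FPKM in control 1, 2 and 3. Control 2 held the highest and control 3 the lowest value, so the groups overlapped. Its log2 difference of -0.14 was 0.11 without control 2 and -0.34 without control 3. Dynlt3, a Tctex light chain that also binds the kinetochore protein BUB3 in human cells, was at 23.0, 24.1 and 24.3 FPKM in diabetic 1, 2 and 3, against 28.3, 32.0 and 21.3 FPKM in control 1, 2 and 3. Here too control 2 was highest and control 3 lowest, and the log2 difference of -0.17 was -0.33 without control 3 and -0.04 without control 2. The spread of both genes was wider in the control group, with a coefficient of variation of 10.9% in diabetic and 33.04% in control retina for Dynlt1 and of 2.78% and 20.1% for Dynlt3.

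The heavy chain gene Dync1h1 had the highest difference of the 10 and the widest spread. It was at 20.2, 26.1 and 21.2 FPKM in diabetic 1, 2 and 3, against 9.74, 15.4 and 23.2 FPKM in control 1, 2 and 3. Control 3 lay among the diabetic libraries and control 1 was less than all others. The means were 22.5 ± 3.15 and 16.1 ± 6.76 FPKM in diabetic and control retina (SD, n = 3 each), and the log2 difference of 0.54 had a 95% interval from -0.12 to 1.21. It was 0.24 without control 1 and 0.84 without control 3, and 0.23 with the length trend removed. The gene model of Dync1h1, at 17600 nt, was the longest of the 10. In the files LOC103692716, at 2.39 to 3.48 FPKM in diabetic and 4.58 to 6.09 FPKM in control retina, lies on the opposite strand within its span, and so does part of RGD1305298. This overlap is one of whole spans, and whether their exons overlap was not tested. No strand marking is named for the kit, and whether reads of these genes were counted for Dync1h1 was not tested.

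The intermediate chains had overlapping groups. Dync1i2, the intermediate chain found in most cell types, was at 72.9, 62.3 and 76.7 FPKM in diabetic 1, 2 and 3, against 62.2, 64.7 and 65.5 FPKM in control 1, 2 and 3, with a log2 difference of 0.13 and an interval from -0.08 to 0.35. Diabetic 2 lay at the control level and the other diabetic libraries above it, and the difference was 0.22 without diabetic 2, 0.07 without diabetic 3 and 0.24 under quantile normalization. Dync1i1, the intermediate chain known for its expression in neurons, was at 22.5, 18.0 and 16.4 FPKM in diabetic 1, 2 and 3, against 21.1, 21.4 and 20.0 FPKM in control 1, 2 and 3, with a log2 difference of -0.14 and an interval from -0.43 to 0.15. Diabetic 1 was above the control libraries and the other diabetic libraries below them, and the difference was -0.27 without diabetic 1 and -0.04 without diabetic 3.

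The light intermediate chains lay closest to 0. Dync1li1 was at 44.7, 42.8 and 46.2 FPKM in diabetic 1, 2 and 3, against 45.7, 45.1 and 43.9 FPKM in control 1, 2 and 3. Its log2 difference of -0.01 had an interval from -0.17 to 0.15. Dync1li2 was at 53.3, 46.7 and 48.1 FPKM in diabetic 1, 2 and 3, against 46.8, 47.9 and 46.7 FPKM in control 1, 2 and 3. Its log2 difference of 0.06 had an interval from -0.11 to 0.24 and was 0.16 under quantile normalization, 0.0088 without diabetic 1 and 0.10 without diabetic 2. Removal of the length trend gave -0.045.

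**Figure D2:**
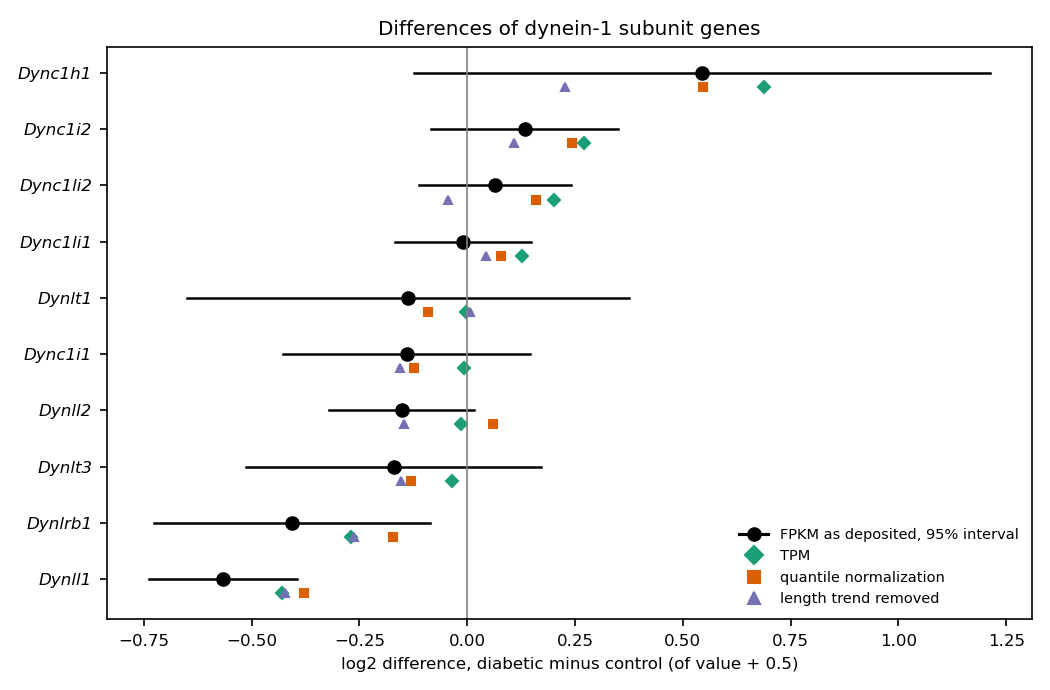
Log2 difference of diabetic minus control retina (horizontal axis, on value + 0.5) for each dynein-1 subunit gene, with the limma estimate and its 95% interval in black and the estimate under other scalings as coloured marks below it. Dynll1, at -0.57, and Dynlrb1, at -0.41, stay below 0 under all 3 other scalings and Dync1h1, at 0.54, above 0, while Dynll2, Dynlt1, Dync1li1 and Dync1li2 change sign under at least 1.

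Over all 16363 genes tested with limma, 0% had an adjusted p (Benjamini-Hochberg) below 0.05, and of the 10 members 0 passed with limma and 0 with voom, a limma fit with precision weights on the rebuilt fragments. At an unadjusted p below 0.05 there were 2 members with limma, Dynll1 and Dynlrb1, both lower in diabetic retina, where 10.7% of all genes were lower and 9.15% higher at that p. With voom there were 3 members at that p, where 1203 of all genes were lower and 2210 higher. The number of members at that p was 1 without diabetic 3, control 1 or control 2, and 5 without control 3. The counts over all genes also moved in these fits, and their ranges are given in the last section. In FPKM as deposited the groups did not overlap in 3 members, all lower in diabetic retina. On that scale 13.6% of all genes tested were lower and 12.7% higher without overlap. With every library rescaled to 1 common total, as for TPM, the groups overlapped in Dynlrb1 and Dynll2 but not in Dynll1. The share of all genes without overlap was not counted on the rescaled values. Of the members 7 were below 0 and 3 above it, where 49.9% of all genes were below and 50.1% above. Dynll1, chosen by its lower FPKM in this same contrast, is in the counts of 2, 3 and 7 lower members. These counts are therefore descriptions, and nothing is supported with them. The adjusted p of Dynll1 was 0.127 (limma). All 10 members passed the filter of 0.5 FPKM on the mean, with means of 19.3 FPKM or more. The median log2 difference of the 10 was -0.14, where that of all genes tested was 0.00. With TPM it was -0.0042, where that of all genes was 0.13, so relative to all genes it was close to the value with FPKM. Under quantile normalization the median of the 10 was -0.016, with 5 of 10 members and 50.5% of all genes below 0. With the length trend removed it was -0.096, with 6 of 10 members and 51.5% of all genes below 0. TPM also changed the split of all genes at an unadjusted p below 0.05 to 692 lower and 3009 higher.

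Values moved with gene length in these libraries, and the members span a wide range of it. In the 925 tested genes of 500 to 800 nt, the class of Dynll1, Dynlrb1 (658 nt) and Dynlt1 (729 nt), the median log2 difference was -0.16, and the range from the 10th to the 90th percentile was -0.55 to 0.39. In the 193 genes of 10000 nt or more, the class of Dync1h1, the median was 0.27 and that range was -0.11 to 0.59. Library by library, the median deviation of these long genes from the mean of all 6 was 0.08, 0.17 and 0.15 in diabetic 1, 2 and 3 and -0.26, -0.19 and 0.05 in control 1, 2 and 3. Dync1h1 deviated by 0.13, 0.49 and 0.19 in diabetic 1, 2 and 3 and by -0.89, -0.25 and 0.32 in control 1, 2 and 3, so that in both control 1 was lowest and control 3 was the 1 control library above 0. With the length trend removed the Dynll1 difference was -0.42 and that of Dync1h1 was 0.23.

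**Figure D3:**
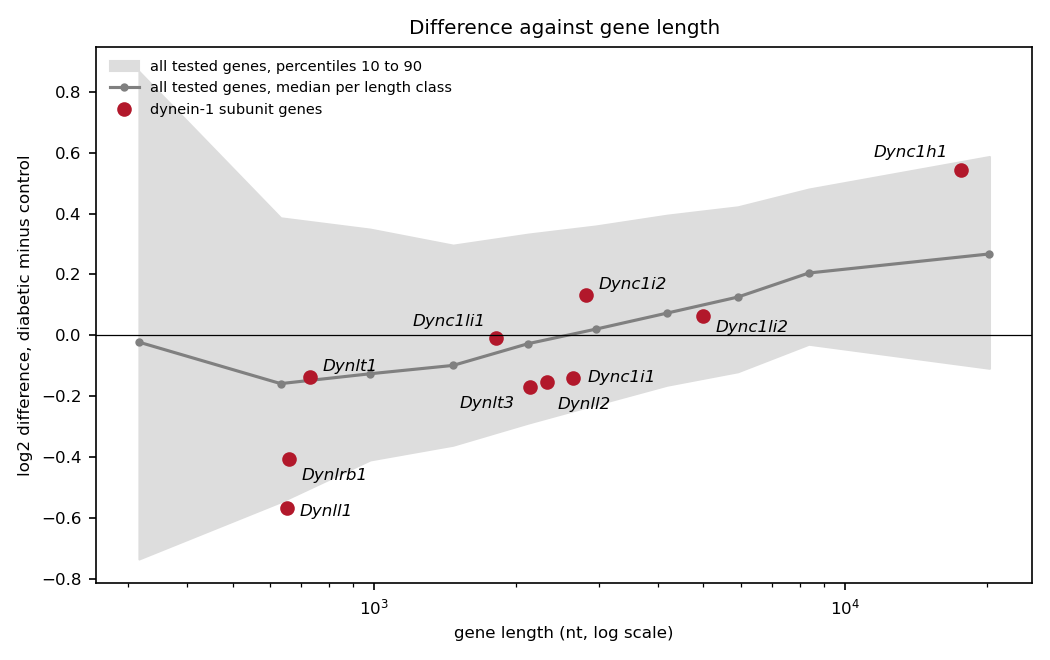
Log2 difference of diabetic minus control retina (vertical axis) against gene length in nt (log scale) for the 10 dynein-1 subunit genes, over the median and the band from the 10th to the 90th percentile of all genes tested in each length class. Dynll1 lies at the lower edge of the band, Dync1h1 near its upper edge, and the other members inside it.

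Which of a pair of paralogs is more abundant was not used to choose the members and was tested within libraries for 4 pairs. Dync1i2 was above Dync1i1 in 6 of 6 libraries, with a mean log2 ratio of 1.74 ± 0.24 (SD, n = 6; p = 0.0312, exact sign-flip permutation test, two-sided, adjusted p = 0.0625 over 4 pairs). The ratio of FPKM was 3.24, 3.45 and 4.67 in diabetic 1, 2 and 3, against 2.95, 3.03 and 3.27 in control 1, 2 and 3, and the groups overlapped. Dync1li1 was below Dync1li2 in 6 of 6 libraries, by a small amount (mean log2 ratio -0.11 ± 0.08, SD, n = 6; p = 0.0312, exact permutation test, adjusted p = 0.0625). The smallest p this test can give with 6 libraries is 0.0312, and here it was reached in 2 of the 4 pairs. Dynlt1 over Dynlt3 had a mean log2 ratio of 0.03 ± 0.16 (p = 0.625, exact permutation test, n = 6, adjusted p = 0.833) and was above 0 in 3 of 6 libraries. Dynll1 over Dynll2 had a mean log2 ratio of -0.01 ± 0.24 (p = 0.906, exact permutation test, n = 6, adjusted p = 0.906).

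The mean of the LC8 pair over all 6 libraries hides opposite signs, with ratios of 0.781, 0.901 and 0.91 in diabetic 1, 2 and 3 and 1.09, 1.17 and 1.19 in control 1, 2 and 3. Such ratios within a library do not depend on how libraries are scaled to each other, but they do depend on gene length, which is 652 nt for Dynll1 and 2323 nt for Dynll2. Counted as fragments that were not divided by length, the mean log2 ratio was -1.84 for the LC8 pair, -1.52 for Dynlt1 over Dynlt3 and -1.57 for Dync1li1 over Dync1li2. Against the heavy chain, Dynll1 stood at 6.79, 5.62 and 7.21 times the FPKM of Dync1h1 in diabetic 1, 2 and 3 and at 21.7, 14.4 and 9.23 times in control 1, 2 and 3. The groups did not overlap in this ratio. It sets the member with the lowest difference against the one with the highest, which are also the shortest (652 nt) and the longest (17600 nt). With the length trend removed their log2 differences were -0.42 and 0.23, against -0.57 and 0.54 as deposited. The ratio itself was not computed with that trend removed. The coefficient of variation of Dynll1 was 5.18% in diabetic and 2.48% in control retina, and that of Dync1h1 was 14.0% and 41.9%.

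**Figure D4:**
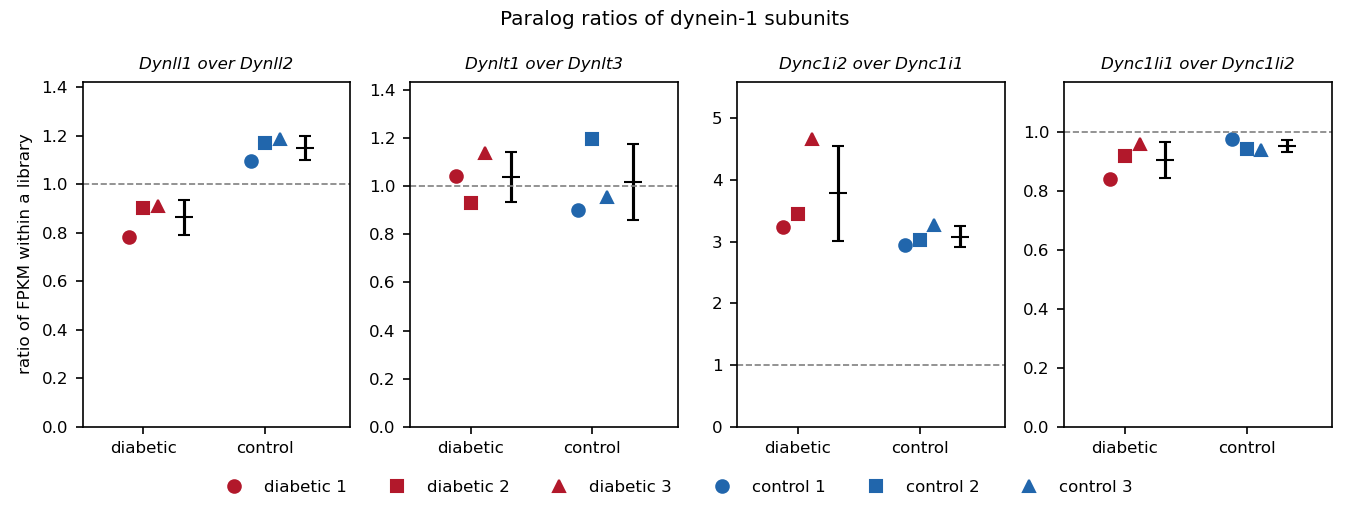
Ratio of FPKM within each library (vertical axes, starting at 0) for 4 pairs of dynein-1 subunit paralogs in diabetic and control retina, with the mean and SD of each group of 3 beside the points and a dashed line at equal levels. Dynll1 over Dynll2 lies below 1 in the 3 diabetic libraries and above 1 in the 3 control libraries, and the other pairs overlap between the groups.

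By Pearson's r over the 6 libraries on log2(FPKM + 0.5), the genes most like Dynll1 among 7539 with a symbol and a mean of at least 10 FPKM were Pcyt2 (r = 0.999), Map1lc3a (0.996), RGD1308134 (0.995), Epn1 (0.993) and Prr3 (0.991). Pcyt2 makes an intermediate of phosphatidylethanolamine synthesis and was at 27.5 ± 1.09 FPKM in diabetic and 36.3 ± 0.77 FPKM in control retina (SD, n = 3 each). Map1lc3a, an LC3 protein of autophagosome membranes, was at 59.6 ± 1.86 FPKM in diabetic and 78.2 ± 0.44 FPKM in control retina. The r of the other members to Dynll1 was 0.81 for Dynll2, 0.76 for Dynlrb1, 0.49 for Dynlt3, 0.33 for Dync1i1, 0.32 for Dynlt1 and 0.17 for Dync1li1. It was -0.56 for Dync1i2, -0.56 for Dync1h1 and -0.57 for Dync1li2. These values describe 6 libraries that fall into 2 groups, and the likeness includes the difference between the groups.

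Dynactin, the cofactor that dynein needs for long runs, was measured with 12 of 12 listed subunits, of which 0 passed over all genes. The median log2 difference was -0.13 and 10 of 12 were below 0 in diabetic retina, where 49.9% of all genes were. Relative to the median of all genes the dynactin median was also -0.12 with TPM, with 10 of 12 below, while under quantile normalization it was 0.01 with 6 of 12 below. At an unadjusted p below 0.05, where 10.7% of all genes were lower, there was 1 subunit, Dctn3, part of the shoulder, at 59.9 ± 2.99 FPKM in diabetic and 75.8 ± 3.30 FPKM in control retina (log2 difference -0.34, or -0.21 with the length trend removed). Actr1a, the actin-related protein of the dynactin filament, was at 72.9 ± 3.10 and 82.3 ± 4.83 FPKM in diabetic and control retina, and the pointed-end subunits Dctn6 and Dctn4 had log2 differences of -0.22 and 0.21. Dctn6 was at -0.10 with the length trend removed, -0.12 under quantile normalization and -0.33 without diabetic 1, and Dctn4 at 0.12 without control 1. Actr1a had a log2 difference of -0.17, or -0.05 under quantile normalization.

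Among 5 regulators of dynein, 0 passed and 3 were at an unadjusted p below 0.05, 2 lower and 1 higher, where 10.7% of all genes were lower and 9.15% higher. Nudc, at 18.9 ± 1.64 FPKM in diabetic and 24.5 ± 0.73 FPKM in control retina, and Ndel1, at 19.2 ± 0.60 and 23.7 ± 0.57 FPKM in diabetic and control retina, were lower, and Nde1, the paralog of Ndel1, was higher, at 6.51 ± 0.59 FPKM in diabetic and 5.10 ± 0.19 FPKM in control retina. In FPKM as deposited the groups did not overlap in these 3, where 13.6% of all genes were lower and 12.7% higher without overlap. Ndel1 and Nde1 recruit Lis1 to dynein, and the Lis1 gene Pafah1b1 had a log2 difference of 0.12, which was -0.05 with the length trend removed, 0.22 under quantile normalization, 0.18 without control 1 and 0.04 without control 3.

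Of 15 activating and cargo adaptors tested, 0 passed, 12 were above 0, where 50.1% of all genes were, and the median log2 difference was 0.10. With the length trend removed 9 were above 0 and the median was 0.01. Bicd1, which links dynein to Golgi vesicles, was the 1 adaptor at an unadjusted p below 0.05 (9.15% of all genes were higher at that p), at 2.87 ± 0.38 FPKM in diabetic and 1.58 ± 0.36 FPKM in control retina (log2 difference 0.70). The centrosomal adaptor gene Nin had a log2 difference of 0.36, or 0.19 with the length trend removed, and the lysosomal adaptor gene Rilp had 0.29, or 0.19 without control 2. Hap1, the partner of huntingtin, had -0.12, or -0.05 under quantile normalization.

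Genes of dynein-2, the motor of transport inside cilia, split in direction, with 4 of 6 above 0, where 50.1% of all genes were, and 0 passed. Its heavy chain gene Dync2h1 was at 9.98 ± 0.84 FPKM in diabetic and 7.62 ± 1.004 FPKM in control retina, and the roadblock gene Dynlrb2 at 5.95 ± 1.18 and 4.02 ± 0.81 FPKM in diabetic and control retina. The Tctex-type light chain gene Tctex1d2, at 24.8 ± 0.73 FPKM in diabetic and 31.9 ± 3.80 FPKM in control retina, and the intermediate chain gene Wdr34, at 14.9 ± 0.68 and 19.1 ± 2.43 FPKM in diabetic and control retina, were lower. These 4 genes were at an unadjusted p below 0.05, 2 lower and 2 higher, where 10.7% of all genes were lower and 9.15% higher. In FPKM as deposited the groups did not overlap in these 4 nor in Wdr60, an intermediate chain gene that was higher. On that scale 13.6% of all genes were lower and 12.7% higher without overlap. Dync2h1, at 12912 nt, had a log2 difference of 0.37 that was 0.10 with the length trend removed, and Tctex1d2 had -0.35, or -0.22 with the trend removed.

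In the list of LC8 binding partners and regulators, 9 of 11 tested genes were above 0, where 50.1% of all genes were, and 0 passed. At an unadjusted p below 0.05 there were 4, all higher in diabetic retina, where 9.15% of all genes were higher. Bmf, a BH3-only cell death gene, was at 34.5 ± 3.72 FPKM in diabetic and 25.2 ± 3.22 FPKM in control retina (log2 difference 0.45). Myo5a, a myosin heavy chain that carries LC8 as a light chain, had a log2 difference of 0.56, and Kank1 had 0.24, or 0.13 with the length trend removed. Bsn, the bassoon gene of the presynaptic active zone, had 0.41, or 0.11 with the length trend removed and 0.27 without control 1. Nos1, the neuronal nitric oxide synthase that PIN binds, was below the filter, at 0.46 ± 0.11 FPKM in diabetic and 0.489 ± 0.082 FPKM in control retina. The median of this list was 0.24, and 0.12 with the length trend removed.

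Kinesins, which move towards microtubule plus ends, had 10 of 14 genes above 0 in diabetic retina, where 50.1% of all genes were, a median of 0.25 and 0 passed. At an unadjusted p below 0.05 6 kinesins were higher and 1 was lower, while 9.15% of all genes were higher and 10.7% lower. Without overlap of the groups in FPKM as deposited 4 kinesins were higher and 4 lower, where 12.7% of all genes were higher and 13.6% lower. Kif21a was at 32.7 ± 1.33 FPKM in diabetic and 24.3 ± 0.83 FPKM in control retina (log2 difference 0.42), and Kif3a, a motor subunit of the kinesin-II of cilia, had 0.48. The conventional kinesin heavy chain gene Kif5a had 0.32, or 0.17 with the length trend removed, and the light chain gene Klc4 had -0.27, or -0.15 under quantile normalization. The median of the kinesins was 0.10 with the length trend removed, with 6 of 14 and 51.5% of all genes below 0. Axonemal dyneins, the motors of beating cilia, were at low levels, and 7 of 10 were below the filter. Of the other 3, Dnai1 had a log2 difference of 0.59 at 2.11 ± 0.36 FPKM in diabetic and 1.23 ± 0.15 FPKM in control retina, and it was at an unadjusted p below 0.05, where 9.15% of all genes were higher. Dnal1 had 0.28, or 0.12 without diabetic 1 and 0.14 without control 1, and Dnai2 had 0.20, or 0.38 without diabetic 2, -0.048 without diabetic 3 and 0.13 under quantile normalization.

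**Figure D5:**
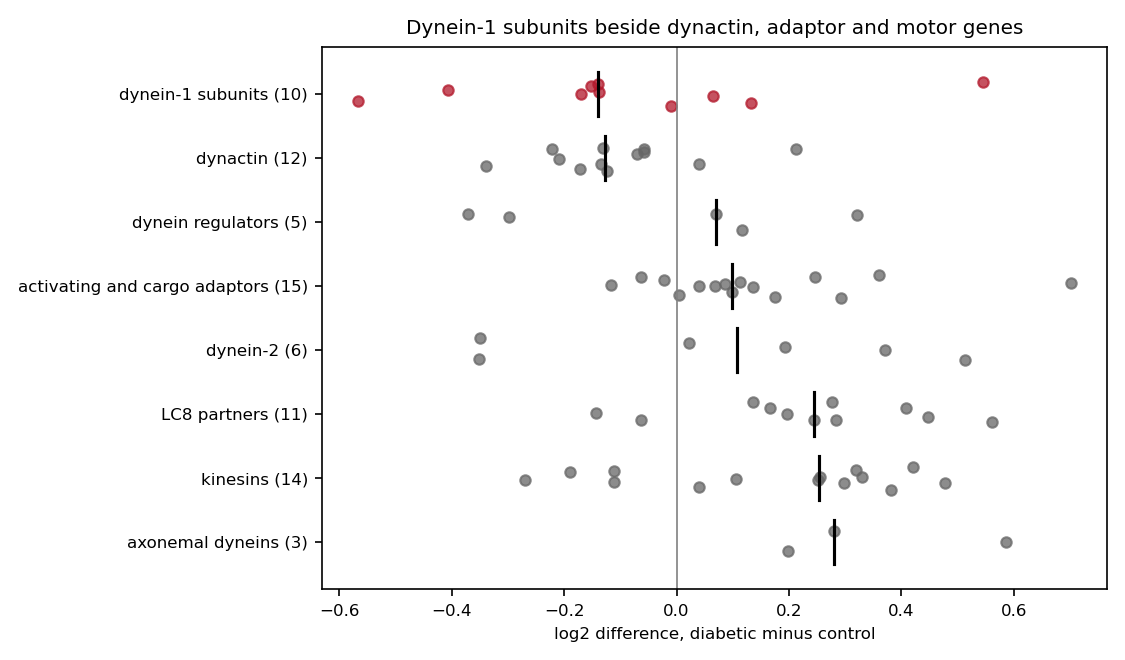
Log2 difference of diabetic minus control retina (horizontal axis) for every tested gene of 8 lists, with the number of genes in brackets, dynein-1 subunits in red and a black bar at the median of each list. The medians lie at -0.14 for dynein-1 and -0.13 for dynactin and between 0.07 and 0.28 for the other lists, with points of both signs in all lists but the axonemal dyneins.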

How the data were processed

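Poly-A RNA of 6 rat retinas was sequenced from both fragment ends, per the labels' protocols, and the submitters' processing notes name HISAT2 2.0.5 as the aligner. The sources used here name no counting tool, build or annotation. The authors deposited 1 table of FPKM with gene length and coordinates, per the file headers. Multiplied by gene length and divided by the value of 1 fragment, 100% of the values above 0 came within 0.05 of a whole number. The value of 1 fragment was estimated for each library from these same values. Libraries of a group differed by more than sampling noise (chi-square over its degrees of freedom was 10.04 or more).

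Values were tested as log2(FPKM + 0.5) where the mean reached 0.5 FPKM, using limma 3.58.1 (R 4.3.3) with only the group as a term, an intensity trend, two-sided moderated tests and Benjamini-Hochberg adjustment over 16363 genes. This scale understates changes of low genes. The function was tested on simulated data. Paralogs were compared by exact sign-flip permutation in Python 3.11.15. Members and lists were chosen with earlier results of these data known. Named are all members and, of each other list, up to 4 tested genes of smallest unadjusted p. Wdr60, for its groups without overlap, and Nos1, as the synthase that PIN binds, are named besides these. Listed genes with no entry of that symbol (Hook3, Atmin) were not analysed here. Promoter sequences are from RefSeq (GRCr8).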

Additional observations from a re-analysis of the deposited data

How the results depend on the processing

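The direction of Dynll1, Dynlt3, Dynlrb1, Dync1h1, Dync1i1 and Dync1i2 was the same under all 16 alternatives, and no member passed under any of them. Dynll1 ranged from -0.60 to -0.38, with an adjusted p between 0.0566 and 0.302 (limma or voom). TPM moved the median of all genes to 0.13. Dync1li1 was 0.13 and Hap1 0.020 with TPM, and relative to that median they were -0.0031 and -0.11. Dync1li1, at -0.01, was 0.079 under quantile normalization, 0.043 with the length trend removed, 0.039 with voom, and between -0.035 and 0.018 when 1 library was left out, turning to 0.018 without diabetic 2 and to 0.0028 without control 1. Dynll2 was 0.059 under quantile normalization. With the length trend removed Dynlt1 was 0.0054, Dync1li2 was -0.045 and Pafah1b1 was -0.048. With 1 library left out Dynlt1 ranged from -0.34 to 0.11, turning without control 2, and Dnai2 from -0.048 to 0.38, turning without diabetic 3. The cause of the turns was not tested. Of 431 values of the 27 other named genes, 428 kept their direction and side of the threshold.

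Over all genes, 2 passed with voom and between 0 and 4 when 1 library was left out. At an unadjusted p below 0.05 there were 692 lower and 3009 higher genes with TPM, and 1145 to 2124 lower and 928 to 1886 higher when 1 library was left out, where 1 to 5 members were at that p. Without the division by length the log2 ratios were -1.84 for Dynll1 over Dynll2, -1.52 for Dynlt1 over Dynlt3 and -1.57 for Dync1li1 over Dync1li2. With 1 library left out they were -0.06 to 0.06, -0.01 to 0.07, 1.65 to 1.78 for Dync1i2 over Dync1i1, and -0.12 to -0.08. Same-numbered libraries did not deviate together (correlations of -0.05, -0.08 and 0.0006), and with the replicate block Dynll1 had -0.57 with an adjusted p of 0.227, 0 members passed and 1497 lower and 1293 higher genes were at an unadjusted p below 0.05. With 3 rats per group and 190 fragments for Dynlt1 in control 3, small differences were not detectable.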
